A study of Homo sapiens with 15 samples.

Results

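The genes of nucleotide excision repair were examined in a human oral squamous carcinoma line with and without a cytoglobin transgene. The members were ERCC1, ERCC2, ERCC3, ERCC4, ERCC5, ERCC6, XPA, XPC, DDB1 and DDB2. They were found on the arrays through the RefSeq accession that the scanner files give for each probe, and all 10 genes were present, of 19483 genes named in this way, with 15 of the 42405 probes. The cells were PE/CA-PJ41, an immortalised line from an oral squamous cell carcinoma. The control cells, NCE, carried the empty transfection vector per the labels, and the CYGB+ cells carried pCMV6-Neo with the human cytoglobin cDNA. The study's text instead describes NCE as un-transfected, so whether the control carried a vector stays unsettled here. Stable clones were selected in G418 with cloning rings, and both groups were left in their usual medium without drug before RNA extraction. The study's methods profiled a single cytoglobin clone, named LST421, so the CYGB+ replicates are separate samples of 1 clone and a clone and a transgene cannot be told apart. There were 3 biological replicates in each group. Each NCE replicate was hybridised to 3 arrays and each CYGB+ replicate to 2 arrays, which gave 15 arrays.

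Nucleotide excision repair removes bulky lesions that distort the DNA helix, among them ultraviolet photoproducts and the intrastrand crosslinks that cisplatin makes. Damage is found either across the genome by XPC and the UV-DDB complex, or by a stalled RNA polymerase through ERCC6. The helicases of TFIIH then open the helix, XPA checks and holds the open complex, nucleases cut the damaged strand on either side of the lesion, and the gap is filled and sealed. Inherited loss of these genes underlies xeroderma pigmentosum and Cockayne syndrome. The study asked how cytoglobin alters the response of oral carcinoma cells to cisplatin, and these arrays measured the cells without the drug.

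Values are log2 normalised green (Cy3) intensities, the channel in which the labels place all samples (the study's methods name cyanine 5 for the control), and a difference is CYGB+ minus NCE on that scale with its standard error (SE). A probe's level was not set against that of another probe. In the files, 53.8 to 61.3% of spots per array were well above background in the green channel. The slides were unevenly shared by the groups, since slide 1 held 8 NCE arrays and slide 2 held the other NCE array, from NCE replicate 1, and all 6 CYGB+ arrays. Array repeat 1 of CYGB+ replicate 1 stood apart, with a median correlation of 0.930 with the other arrays against 0.967 to 0.985 for the rest. The probe for cytoglobin itself, CYGB, did not separate the groups. Its intensities were 11.85, 12.15 and 11.96 in the samples labelled NCE and 11.38, 12.45 and 11.97 in those labelled CYGB+ (difference -0.05, SE 0.25, limma, adjusted p = 0.913, n = 3 per group). The probe was well above background on all 9 NCE arrays, although the study describes the parent line as lacking cytoglobin. The files used here do not place this probe relative to the transgene, so whether it reads the cDNA is not known. Why it did not separate the groups was not tested. The probe gave no check of the labels, and the directions below rest on the labels alone. All 7 squamous epithelial marker genes were well above background on the 15 arrays. Of these, KRT6A was lower in CYGB+ (difference -0.46, limma, adjusted p = 0.045, and -0.05 with the slide as a block). EPCAM (-0.47, adjusted p = 0.075) and KRT14 (0.76, adjusted p = 0.069) did not overlap between the groups without passing. The summed intensity of the squamous list ran from 15.26 to 15.31 in NCE and from 15.08 to 15.62 in CYGB+. Of 6 fibroblast genes, 2 were tested, and COL3A1, DCN, LUM and PDGFRB were well above background on at most 1 array. The tested pair differed, since COL1A1 did not pass (6.29 to 6.71 in NCE and 6.46 to 6.78 in CYGB+, difference 0.10, limma, adjusted p = 0.705) and COL1A2 was lower in CYGB+, at 7.94, 7.81 and 7.80 in NCE against 6.52, 6.65 and 6.40 in CYGB+ (difference -1.32, limma, adjusted p = 0.0031). The size of the COL1A2 difference depended on the background correction, at -2.54 with the scanner's processed green signal and -2.51 with background subtraction. The summed intensity of the fibroblast list ran from 9.25 to 9.38 on the log2 scale in NCE and from 8.88 to 8.98 in CYGB+, with COL1A2 the only tested gene of the list that was lower. That sum also took in the untested probes, which lay near background. The part of any of these in the results below was not tested.

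Across the repair genes, a single probe passed the test between the groups. Of the 15 probes, 1 was lower and 0 were higher in CYGB+ by limma at an adjusted p under 0.05, against 10.8% of all 22328 probes tested (5.5% higher and 5.32% lower). The probe that passed was for DDB2, and it was the 1 called with the replicate number as a block too, against 13.1% of all probes tested. At an unadjusted p under 0.05 there were 3 member probes, for DDB2, XPA and ERCC3, against 27.5% of all probes tested. All 15 member probes passed the filter on dim probes, which counted arrays without regard to group. Differences were above 0 at 10 member probes and below 0 at 5, with a median of 0.05 (0.0015 over all probes tested). The median absolute difference was 0.07, against 0.18 over all probes tested. The 3 values of one group lay wholly beyond the 3 of the other at 3 member probes, 2 of them higher in CYGB+ (ERCC3 and XPA) and 1 lower (DDB2), against 33.3% of all probes tested (16.7% in each direction).

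**Figure D1:**
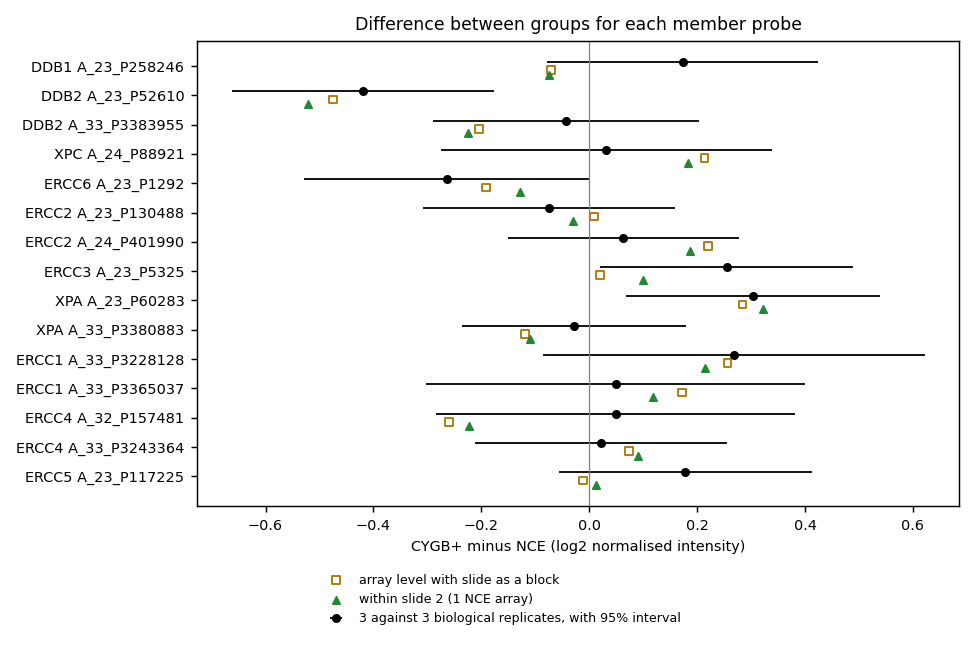
The difference in log2 intensity (CYGB+ minus NCE) is plotted for each of the 15 probes of the repair genes, as black points with 95% confidence intervals from limma (n = 3 per group), beside the values with the slide as a block (squares) and within slide 2 (triangles). All intervals but those of DDB2 (A_23_P52610), XPA (A_23_P60283) and ERCC3 reach 0.

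Among the members that recognise damage, DDB2 gave the single call, and DDB1 and XPC gave none. DDB2 encodes the subunit of UV-DDB that binds damaged DNA, and it is mutated in xeroderma pigmentosum group E. Its probe A_23_P52610 read 9.76, 9.54 and 9.57 in NCE replicates 1 to 3 and 9.25, 9.27 and 9.09 in CYGB+ replicates 1 to 3. Every replicate labelled CYGB+ lay below every replicate labelled NCE, as at 16.7% of all probes tested. The arrays ran from 9.46 to 9.86 (median 9.60) over 9 NCE and from 8.97 to 9.31 (median 9.23) over 6 CYGB+, also without overlap. These arrays repeat the 3 replicates of each group and nearly follow the slides. The share of all probes that separate by array was not counted. The intensity fell by 0.42 on the log2 scale (SE 0.10, 95% confidence interval -0.66 to -0.18, limma, adjusted p = 0.045), so on the linear scale it decreased by 25.2% of the NCE level. A larger difference in either direction was seen at 18.2% of all probes tested. The call sat at the threshold and was lost when any 1 of the 6 replicates was left out (limma, adjusted p from 0.055 without CYGB+ replicate 1 to 0.129 without NCE replicate 3). Calls over all probes tested fell too, from 2415 to between 493 and 2398. Without the array that stood apart the difference was -0.42 (limma, adjusted p = 0.021), at a setting that called 18.4% of all probes tested.

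The other DDB2 probe, A_33_P3383955, did not pass the test, and its 95% confidence interval overlapped that of the first. It read 7.67, 7.49 and 7.57 in NCE and 7.64, 7.58 and 7.39 in CYGB+, so the groups overlapped (difference -0.04, 95% confidence interval -0.29 to 0.20, limma, adjusted p = 0.83). Both probes carry the same transcript accession of DDB2. The gap between the differences of the pair was -0.38, and an exact two-sided permutation test over the 6 replicates gave p = 0.1, the smallest it can give with 3 against 3.

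**Figure D2:**
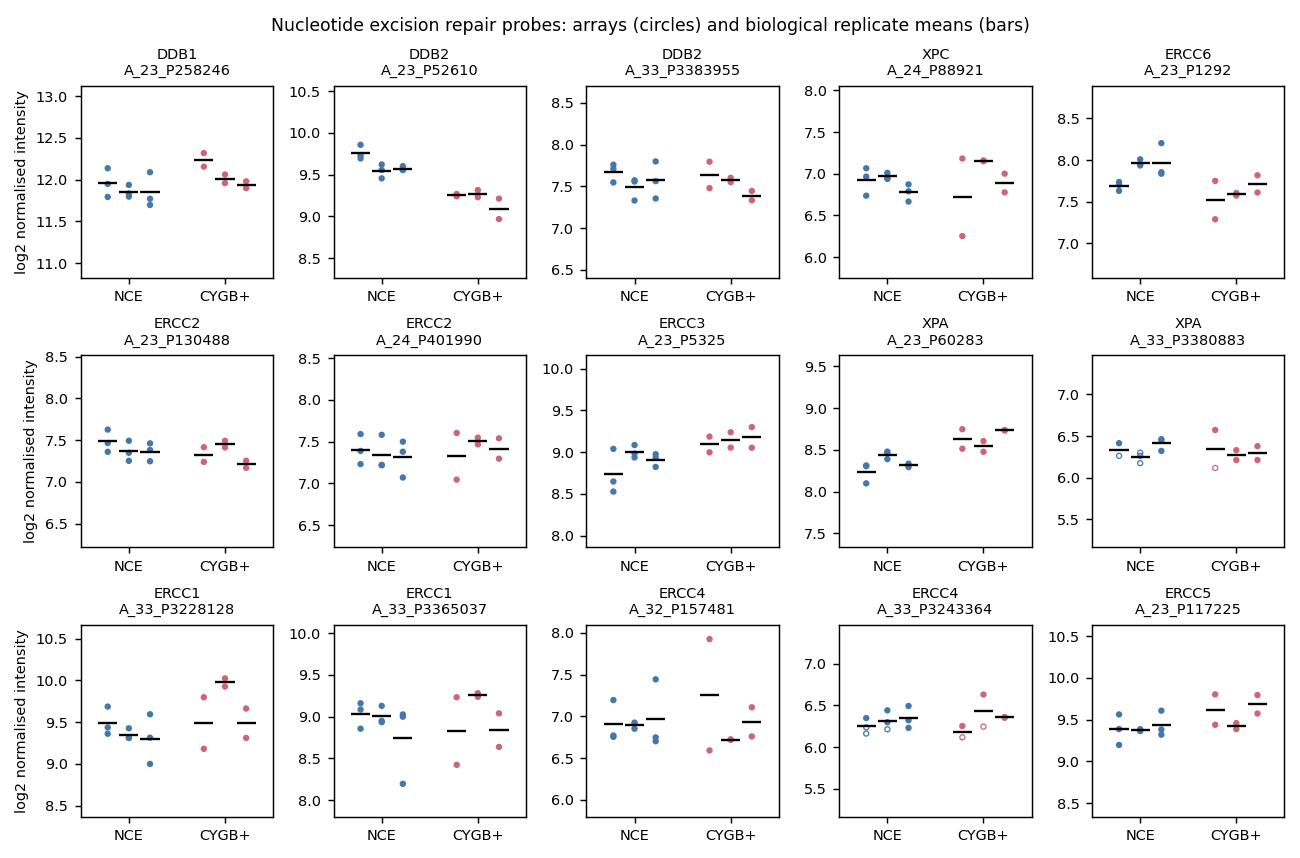
Log2 normalised green intensity is plotted for the repair gene probes, with a circle per array (open where not well above background) and a bar at the mean of each biological replicate, for NCE and CYGB+. Each panel spans the same number of log2 units, and the 6 CYGB+ arrays of DDB2 probe A_23_P52610 all lie below the 9 NCE arrays.

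DDB1, which joins DDB2 to the CUL4 ubiquitin ligases, did not pass the test. It read 11.96, 11.86 and 11.85 in NCE and 12.24, 12.01 and 11.94 in CYGB+ (difference 0.17, SE 0.11, 95% confidence interval -0.08 to 0.42, limma, adjusted p = 0.345). Without CYGB+ replicate 1 the difference of DDB1 was 0.085. XPC, the sensor of helix distortion in global genome repair, read 6.92, 6.97 and 6.78 in NCE and 6.72, 7.15 and 6.89 in CYGB+ (difference 0.03, SE 0.13, limma, adjusted p = 0.903). Without the array that stood apart it was 0.19. The highest and the lowest of the 6 XPC values were both in CYGB+.

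ERCC6, the CSB ATPase that is recruited to stalled RNA polymerase in transcription-coupled repair, was lower in CYGB+ in the means but did not pass. Its values were 7.69, 7.96 and 7.96 in NCE and 7.52, 7.59 and 7.71 in CYGB+. NCE replicate 1 lay just below CYGB+ replicate 3, so the groups overlapped. The difference was -0.26 (SE 0.11, 95% confidence interval -0.53 to 0.00, limma, adjusted p = 0.182).

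Neither helicase of TFIIH passed the test. ERCC3, the XPB translocase, read 8.74, 9.00 and 8.91 in NCE and 9.09, 9.15 and 9.18 in CYGB+, without overlap between the replicates. Its difference was 0.25 (SE 0.10, 95% confidence interval 0.02 to 0.49, limma, adjusted p = 0.152). Single arrays of the groups did overlap, from 8.53 to 9.09 in NCE and from 9.00 to 9.30 in CYGB+. ERCC2, the XPD helicase, had a pair of probes whose differences had opposite signs, other than with the processed signal at the 75th percentile (-0.02 for A_24_P401990) and with the slide as a block. A_23_P130488 ranged from 7.36 to 7.48 in NCE and from 7.21 to 7.45 in CYGB+ (difference -0.07, limma, adjusted p = 0.678). A_24_P401990 ranged from 7.32 to 7.40 in NCE and from 7.32 to 7.51 in CYGB+ (difference 0.06, limma, adjusted p = 0.699).

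XPA, the zinc-finger protein that assembles the pre-incision complex, read higher in all CYGB+ replicates at its coding transcript but was not called. The probe A_23_P60283 read 8.24, 8.44 and 8.31 in NCE and 8.63, 8.54 and 8.73 in CYGB+. The replicates of the groups did not overlap, and the arrays met at their edges, with 8.10 to 8.48 over NCE and 8.48 to 8.75 over CYGB+. The difference was 0.30 (SE 0.10, 95% confidence interval 0.07 to 0.54, limma, adjusted p = 0.101). A second XPA probe, A_33_P3380883, carries the accession of a non-coding transcript and was well above background on 5 of 9 NCE arrays and 5 of 6 CYGB+ arrays. It ranged from 6.25 to 6.41 in NCE and from 6.27 to 6.34 in CYGB+ (difference -0.03, limma, adjusted p = 0.873). Array repeat 1 of NCE replicate 1 lacked a value, though it is counted among the 5 NCE arrays.

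The genes of the incision nucleases had differences above 0, none of which passed the test, and the sign turned with the processed signal at both ERCC4 probes and at ERCC1 probe A_33_P3365037, and with background subtraction at ERCC4 probe A_33_P3243364. With the slide as a block ERCC5 gave -0.011 and ERCC4 probe A_32_P157481 gave -0.26. ERCC5, the XPG nuclease, has 10 spots per array for its probe and read 9.38, 9.37 and 9.44 in NCE and 9.62, 9.42 and 9.68 in CYGB+ (difference 0.18, 95% confidence interval -0.06 to 0.41, limma, adjusted p = 0.300). CYGB+ replicate 2 fell among the NCE values, so the groups overlapped. ERCC1, the partner of the XPF nuclease and a gene often studied in platinum response, was read by 2 probes. A_33_P3228128 read 9.50, 9.35 and 9.30 in NCE and 9.49, 9.98 and 9.49 in CYGB+ (difference 0.27, SE 0.15, limma, adjusted p = 0.300), where CYGB+ replicate 2 stood above the others and the difference was 0.11 without it. A_33_P3365037 read 9.03, 9.00 and 8.74 in NCE and 8.83, 9.26 and 8.84 in CYGB+ (difference 0.05, SE 0.15, limma, adjusted p = 0.868). CYGB+ replicate 2 was again the highest of the 6. ERCC4, the XPF nuclease itself, was read by a pair of probes, neither of which passed. A_32_P157481 read 6.91, 6.90 and 6.97 in NCE and 7.26, 6.72 and 6.93 in CYGB+ (difference 0.05, SE 0.14, limma, adjusted p = 0.860). Without the array that stood apart, repeat 1 of CYGB+ replicate 1, this difference was -0.17. A_33_P3243364, well above background on 6 of 9 NCE and 4 of 6 CYGB+ arrays, ranged from 6.25 to 6.35 in NCE and from 6.19 to 6.44 in CYGB+ (difference 0.02, limma, adjusted p = 0.914).

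The 5 genes with a pair of probes were DDB2, ERCC1, ERCC2, ERCC4 and XPA. The gaps between the differences of a pair were -0.38 for DDB2, 0.33 for XPA, 0.22 for ERCC1, -0.14 for ERCC2 and 0.03 for ERCC4. The exact two-sided permutation test gave p = 0.1 for each pair but ERCC4, at p = 1, and 0.125 after Benjamini-Hochberg adjustment over the 5 pairs. With 3 replicates against 3 this test cannot go below 0.1. The spread between array repeats of 1 replicate was smallest for DDB2 probe A_23_P52610, with a standard deviation of 0.085, and largest for ERCC4 probe A_32_P157481, with 0.40.

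The size of difference that could be called limits what these values show. The SE of the 15 differences ran from 0.089 to 0.15, and at its own SE a member probe needed a difference of 0.35 to 0.59 on the log2 scale to be called. Smaller differences could not be called here. These sizes belong to intensities with the offset of 50 from background correction, and are not sizes of change in transcript. With the processed signal (quantile) ERCC6 gave -0.47 and ERCC3 0.12, against -0.26 and 0.25 in the reported fit. The 95% confidence intervals of the probes that missed the threshold reached as far as -0.53 at ERCC6 and 0.62 at ERCC1 probe A_33_P3228128.

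Because slide and group were nearly the same split, the differences were also fitted with the slide as a block. No member probe was called in that array-level limma fit, in which 3.26% of all probes tested were. DDB2 probe A_23_P52610 gave -0.48 with the slide as a block (adjusted p = 0.10) and -0.52 within slide 2 alone, where 1 NCE array met 6 CYGB+ arrays. The other DDB2 probe, A_33_P3383955, gave -0.20 with the block and -0.23 within slide 2. XPA probe A_23_P60283 gave 0.28 with the block and 0.32 within slide 2. ERCC3 gave 0.02 with the block and 0.10 within slide 2, and ERCC6 gave -0.19 and -0.13. DDB1 had its sign reversed by both, at -0.07 in each. Both fits rest on the 1 NCE array of slide 2, from NCE replicate 1. Slide and group therefore cannot be told apart from these arrays at any probe, also where a difference kept its size. For DDB2 probe A_23_P52610 that NCE array read 9.73, above the median of 9.60 over the NCE arrays.

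**Figure D3:**
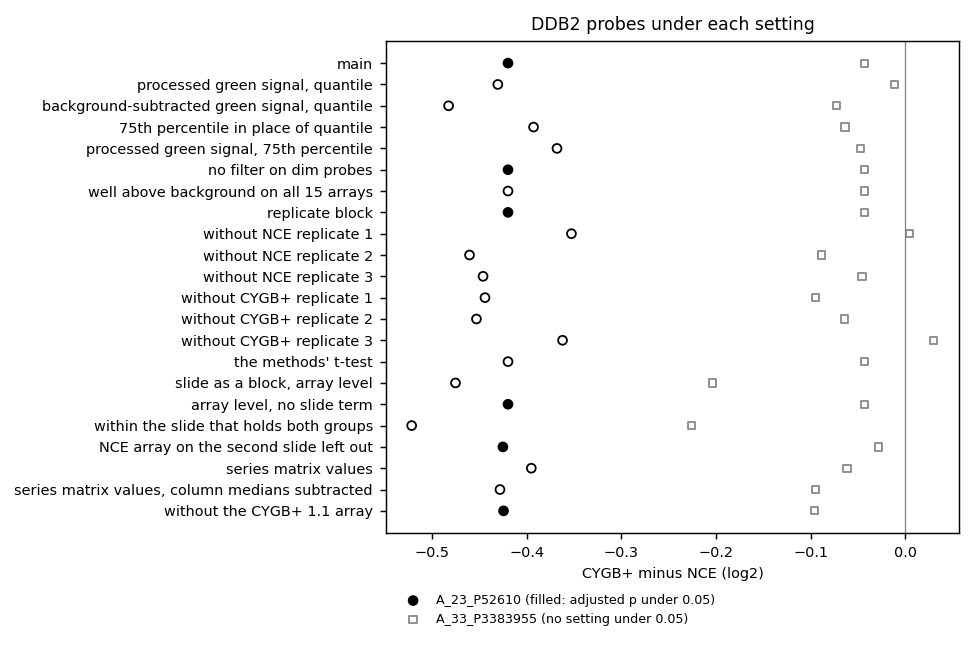
The difference of DDB2 probe A_23_P52610 (CYGB+ minus NCE, log2) is plotted for the fit reported here and for each of the 21 other settings. Circles stayed between -0.52 and -0.35, filled where the adjusted p was under 0.05 (5 of the 21), and squares show the other DDB2 probe, A_33_P3383955, which was called in none.

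The wider pathway held 42 further genes, of which 41 were matched on the array with 53 probes, all of them tested. In CYGB+, 2 of these probes were higher and 4 lower by limma at an adjusted p under 0.05, against 5.5% higher and 5.32% lower of all probes tested, so 6 of 53 is near that share. Among them 23 differences were above 0 and 30 below it, and the median was -0.05. No probe of this list was called with the slide as a block (3.26% of all probes tested), and 12 of 53 were called without array repeat 1 of CYGB+ replicate 1 (18.4% of all probes tested). None of the 53 was called without NCE replicate 2, nor without NCE replicate 3. Calls over all 22328 probes tested fell to 493 and 495 at these settings. Within TFIIH, the kinase module moved in both directions. CCNH, its cyclin, rose from 9.38, 9.49 and 9.45 in NCE to 9.88, 10.10 and 10.37 in CYGB+ (difference 0.67, SE 0.13, limma, adjusted p = 0.024). MNAT1, which assembles the module, fell from 11.40, 11.73 and 11.52 to 10.89, 10.94 and 11.07 (difference -0.58, limma, adjusted p = 0.023). CDK7, the kinase, was named after its values were seen and did not pass, with a difference of 0.26 (limma, adjusted p = 0.138). With the slide as a block CCNH gave 0.59 and MNAT1 gave -0.49.

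In gap filling, 2 of 22 probes were lower and 0 higher, against the 5.32% and 5.5% of all probes tested. PCNA, the sliding clamp of replicative and repair synthesis, read 12.38, 12.74 and 12.82 in NCE and 11.97, 11.93 and 12.07 in CYGB+ at A_23_P28886, without overlap (difference -0.66, SE 0.13, limma, adjusted p = 0.025). Its other probe, A_33_P3258612, gave -0.55 and did not pass (limma, adjusted p = 0.152). POLE2, a subunit of DNA polymerase epsilon, read 8.90, 9.52 and 9.73 in NCE and 8.24, 8.36 and 8.71 in CYGB+ (difference -0.95, SE 0.23, limma, adjusted p = 0.041). With the slide as a block the difference of POLE2 was -0.39, and that of PCNA at the called probe was -0.59. Both proteins also serve DNA replication.

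In transcription-coupled repair, 1 of 10 probes was lower, against 5.32% of all probes tested. HMGN1, a nucleosome-binding protein, read 13.51, 13.69 and 13.84 in NCE and 12.98, 12.81 and 13.11 in CYGB+ at A_24_P409857, without overlap (difference -0.71, SE 0.13, limma, adjusted p = 0.018). Its other probe, A_32_P22257, gave -0.65 and just missed the threshold (limma, adjusted p = 0.058, and 0.019 with the replicate number as a block). In damage recognition, 1 of 9 probes of the wider list was higher, against 5.5% of all probes tested. CUL4B, a scaffold of the ligase that holds DDB1 and DDB2, read 7.45, 7.52 and 7.57 in NCE and 8.16, 7.81 and 7.93 in CYGB+ at A_23_P422178 (difference 0.45, limma, adjusted p = 0.049, and 0.060 with the replicate block). With the slide as a block it was 0.24 (adjusted p = 0.796). Its other probe, A_23_P148463, gave -0.23 (limma, adjusted p = 0.361). The replicate block also called GTF2H1 and GTF2H3, subunits of TFIIH named after their values were seen, with differences of -0.50 and -0.44 (adjusted p = 0.048 and 0.041, against 0.108 and 0.062 without it).

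None of the 5 probes of RPA, the single-strand binding complex that protects the opened strand, passed the test. Their differences were -0.23 and 0.07 for RPA1, 0.08 and -0.18 for RPA2, and 0.24 for RPA3. The NCE and CYGB+ replicates overlapped at each of them. With the slide as a block the first RPA1 value became 0.22, the second RPA2 value 0.41 and that of RPA3 -0.14.

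**Figure D4:**
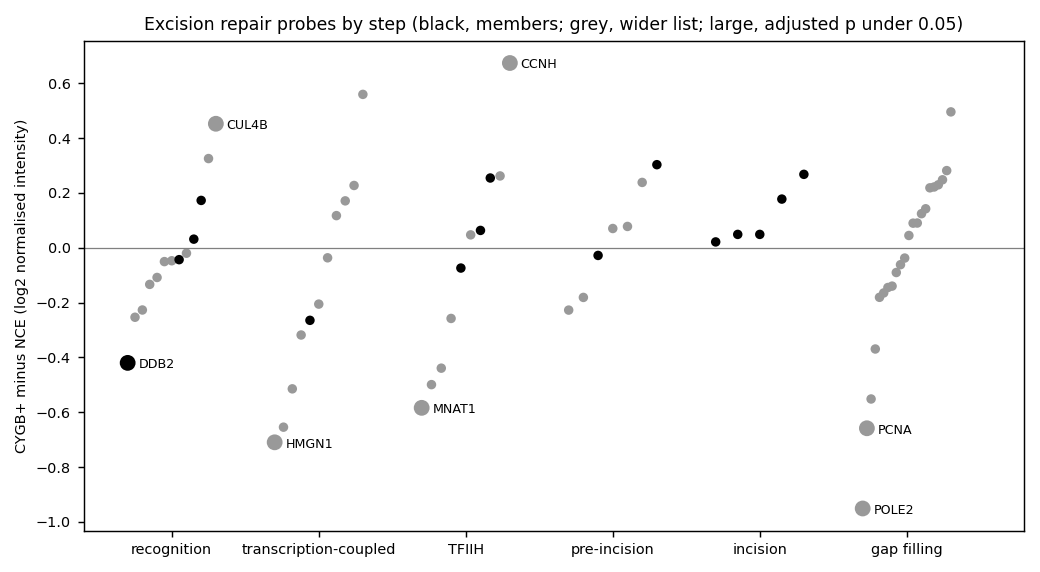
Differences in log2 intensity (CYGB+ minus NCE) are plotted by step of nucleotide excision repair for the 15 member probes and the 53 probes of the wider list, in black and grey, with the called probes drawn large and named. The called probes of the wider list lie in TFIIH, gap filling, transcription-coupled repair and recognition, and none among the 5 probes of RPA.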

How the data were processed

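Labelled cRNA made from total RNA of 3 NCE and 3 CYGB+ biological replicates was hybridised to 15 Agilent SurePrint G3 human arrays on 2 slides. The deposited scanner files hold Feature Extraction 10.7.3.1 green and red intensity per spot, not yet normalised between arrays. The labels place every sample in the green channel and do not say what the red channel held, so no comparison was drawn from it. The authors deposited a series value table that matches the natural log of the processed green signal with probes centred (the exact centring stays unknown). It holds 15040 probes with column medians from -0.161 to 0.182, and served as an alternative for 12 of the 15 member probes.

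Green median signals were background-corrected with normexp (offset 50) and quantile-normalised. The files give no mean signal, which the planned analysis named, so the median was used. Spots marked as outliers were left out, spots averaged per probe and arrays per biological replicate. The 22328 probes well above background on at least 6 of 15 arrays were tested with limma 3.58.1 in R 4.3.3, 3 against 3, with Benjamini-Hochberg adjustment over all of them, and called at an adjusted p under 0.05. Gene names came from RefSeq accessions (25422 of 27310 probes with one were named). Exact permutation tests used scipy 1.17.1. The fit was tested on simulated data. The number of arrays limits the precision. The labels give RNA extraction on separate occasions but not independent cultures, so p-values measure the spread between these samples.

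Replicate numbers are shared by the groups. Deviations of same-numbered replicates correlated at 0.21, 0.23 and 0.30, while pairs of other numbers ran from -0.50 to 0.29. These ranges overlap, so the check does not establish a pairing. The reported fit was therefore unpaired, and the fit with the replicate number as a block was set beside it. The alternatives were other background corrections, normalisations, filters and tests, the slide as a block or held fixed, leaving out each replicate, and the series table. Members and lists were chosen with earlier results of these data known. Named genes were all members, called probes of the wider list, the RPA genes and CYGB.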

Additional observations from a re-analysis of the deposited data

Results flagged for a closer look

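The repair probes and the CYGB probe were screened for single arrays that lay far from the rest of their group, over 32 groups of arrays, and 3 were found, where chance gives about 1 in 20 groups. Array repeat 2 of CYGB+ replicate 3 read 8.97 for DDB2 probe A_23_P52610, below 9.21 to 9.31 on the other CYGB+ arrays. Array repeat 1 of NCE replicate 1 read 8.10 for XPA probe A_23_P60283, below 8.29 to 8.48 on the other NCE arrays. Array repeat 2 of NCE replicate 3 read 8.20 for ERCC1 probe A_33_P3365037, below 8.86 to 9.16 on the other NCE arrays. Without the replicates that hold them, the differences were -0.36 for DDB2, 0.26 for XPA and -0.04 for that ERCC1 probe.

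The red channel, which no comparison used, held signal on every array, with a median of 58.9% of spots well above background (55.6 to 61.4% over 15 arrays). All member probes were well above background there on 15 arrays, other than XPC (14 arrays) and ERCC4 probe A_33_P3243364 (12 arrays). For the non-coding XPA probe this counts array repeat 1 of NCE replicate 1, which lacked a green value. Its red value there was 14.28, against a median of 7.13.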

How the results depend on the processing

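The member count of 1 called probe became 0 with the processed signal (quantile or 75th percentile), with background subtraction, with the 75th percentile, with probes above background on all 15 arrays, with the methods' t-test, with the slide as a block, within slide 2, with either series-table setting and without any 1 replicate (0 to 0), and 2 at array level without a slide term, where XPA was also called. It stayed 1 without a filter, with the replicate block, without the NCE array on slide 2 and without array repeat 1 of CYGB+ replicate 1. The 6 calls of the wider list became 0 with the processed signal (both scalings), the t-test, the slide block and within slide 2, 3 with background subtraction, 2 with the series table, 14 at array level without a slide term and 12 without that CYGB+ array, and ran from 0 to 5 without 1 replicate. Without NCE replicate 2 or 3 it was 0, and without CYGB+ replicate 2 it was 2. Over all probes tested, 2415 calls became 1504 with the 75th percentile, 1524 with the processed signal at that percentile, 660 with the t-test, 728 with the slide block, 5 within slide 2, 4858 at array level without a slide term, 1444 with the series table and 4108 without that CYGB+ array. Leaving out 1 replicate gave 493 (NCE replicate 2) to 2398 (CYGB+ replicate 1), with 495 without NCE replicate 3 and 1166 without NCE replicate 1. Without CYGB+ replicates 2 and 3 it gave 1707 and 1264. The processed signal with quantile gave 1838 and background subtraction 1983. The filter on all 15 arrays gave 2120 of 17667 probes, and no filter 2033 of 42405. Without the NCE array on slide 2 there were 2727. The series table, with 15031 probes, gave 1626 after column medians were subtracted. The counts of members and of the wider list above are to be read beside these. The replicate block gave 2933 calls and left the DDB2 call in place (adjusted p = 0.048). Among the named probes it changed only the calls given for CUL4B, HMGN1, GTF2H1 and GTF2H3, and KRT14 and EPCAM among the markers. The cause of these shifts was not tested.

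Among the named probes, signs turned only where the reported difference had passed no test. The slide block gave 0.0085 for ERCC2 (A_23_P130488), -0.26 for ERCC4 (A_32_P157481), -0.011 for ERCC5, -0.071 for DDB1, 0.22 for RPA1 (A_23_P107073), 0.41 for RPA2 (A_33_P3334635) and -0.14 for RPA3. Within slide 2, ERCC4 (A_32_P157481) gave -0.22, DDB1 -0.074, RPA1 0.24, RPA2 0.45 and RPA3 -0.17. The processed signal with quantile gave -0.068 for ERCC1 (A_33_P3365037), -0.013 for ERCC4 (A_32_P157481) and -0.22 for ERCC4 (A_33_P3243364), and with the 75th percentile -0.054, -0.055 and -0.23, with -0.021 for ERCC2 (A_24_P401990) and 0.091 for CYGB. Background subtraction gave -0.20 for ERCC4 (A_33_P3243364). Leaving out array repeat 1 of CYGB+ replicate 1 gave -0.17 for ERCC4 (A_32_P157481). The series table gave 0.047 for CYGB, and 0.014 after column medians were subtracted. Leaving out 1 replicate gave -0.093 to 0.12 for ERCC1 (A_33_P3365037), -0.095 to 0.17 for ERCC4 (A_32_P157481), -0.034 to 0.092 for ERCC4 (A_33_P3243364), -0.071 to 0.012 for XPA (A_33_P3380883), -0.095 to 0.029 for DDB2 (A_33_P3383955), -0.085 to 0.13 for XPC, -0.011 to 0.17 for RPA2 (A_23_P86133) and -0.31 to 0.22 for CYGB. DDB2 probe A_23_P52610 kept its sign in all 21 settings and passed in 5. Its adjusted p was 0.00093 in the array-level limma fit without a slide term, which called 4858 of all probes tested. In the other settings that passed it was 0.021 to 0.049 (limma). Where it did not pass, the fit within slide 2 aside, it was 0.053 to 0.218 (limma or the t-test). Low signal over background limits ERCC4 probe A_33_P3243364, RPA1 probe A_33_P3218951 and the non-coding XPA probe.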
